A study of Arabidopsis thaliana with 6 samples.

Results

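The proton-dependent oligopeptide and nitrate transporters, called the NPF family (also NRT1/PTR), were followed in Arabidopsis roots in which the transcription factor OBP4 had been overexpressed. The 38 loci, out of 32627 measured, were chosen by the words proton-dependent oligopeptide transport in their array annotation and by no measured value. All 38 were read from 1 row of the array, 31 of them with 4 probes and 7 with 3 probes, and 1 of them, AT1G72131, is a transcribed pseudogene in the reference. The family itself was put forward with the differences between the lines already known. Its counts and its median are therefore descriptions with no test of the family as a whole.

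RNA came from roots of a pER8::OBP4 line (3 arrays) and of a pER8::GFP control line (3 arrays), in which estradiol switches on OBP4 or GFP. OBP4 is a DOF transcription factor, one of a plant group that binds DNA through a single zinc finger. Seedlings of both lines were 5 days old when moved to 10 µM estradiol for 8 h under a photoperiod with 16 h of light, and each replicate had its own culture plates. The pER8 system drives a transgene throughout the plant and not in one cell type. How many independent transgenic lines were used was not given in the sources used here. Estradiol was given to OBP4 and GFP seedlings alike, and uninduced roots were not analysed here, so a difference between the lines that existed before induction cannot be told apart from an effect of OBP4. The values are log2 levels from one-colour NimbleGen arrays, and every difference below is OBP4 minus GFP on that scale with the standard error (SE) of the limma fit. The test was limma over all 32627 loci with Benjamini-Hochberg adjustment, and a locus passed at an adjusted p under 0.05.

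NPF proteins sit in plant membranes and carry their cargo together with protons. The family is best known for nitrate uptake and for moving nitrate between root and shoot, but its members also carry small peptides, glucosinolates and hormones such as abscisic acid and gibberellin. In roots, different members take nitrate into the cell, release it, load it into the xylem or take it back from the xylem sap. The reference names 14 of the 38 loci, and a role is stated below for some of these. The other 24 appear by locus only, and the reference table gives them no name. A missing name is not read as a missing role.

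The OBP4 transcript (AT5G60850, chromosome 5, 24480449 to 24481873; all coordinates follow the array annotation) stood at 15.74, 15.83 and 15.86 in OBP4 roots and at 14.37, 14.78 and 14.48 in GFP roots. The difference was 1.27 ± 0.12 (adjusted p = 0.00279), and all OBP4 arrays lay above all GFP arrays. The authors also deposited a second log2 table, with no stated normalization, which was used as an alternative. There OBP4 did not separate the lines (13.93 to 14 in OBP4 roots, 13.81 to 14.04 in GFP roots, difference 0.01 ± 0.09, adjusted p = 0.98), and 1 of its 6 columns correlated best with its own array. Its values are given below for the record, and a pass or failure there does not decide a call on the arrays. Correlations between arrays across loci, which are not independent replicates, were 0.982 to 0.995 within a line and 0.970 to 0.985 between lines. The mean of 14 root marker genes was 13.18 to 13.28 over the OBP4 arrays and 13.58 to 13.72 over the GFP arrays. Of these markers 0 rose and 5 fell (35.7%, where 8.48% of all loci fell), namely WER, GL2, EXPA7, COBL9 and FRO2, all known from the root epidermis or its hairs, and FRO2 differed by -2.89 ± 0.11 (adjusted p = 0.000414). In the 6 fits that each left out 1 array, FRO2 passed in all 6, COBL9 and EXPA7 in 4, GL2 in 2 and WER in 1. In the second table FRO2 alone of the root markers passed (-1.72, adjusted p = 0.0269). The part of these epidermal markers in the results on the transporters was not tested. In whole roots, fewer cells of a type and less RNA per cell cannot be told apart.

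Of the 38 NPF loci, 16 (42.1%) were lower and 3 (7.89%) were higher in OBP4 roots, and 19 did not pass. Among all loci tested, 8.48% were lower and 5.23% were higher, 13.7% in either direction. The loci that fell included most of 2 runs of neighbouring genes on chromosomes 1 and 3, with AT5G46040 (-2.24 ± 0.12), AT3G45660 (-1.75 ± 0.13) and AT2G38100 (-1.28 ± 0.13) falling furthest. The loci that rose were NRT1.8 (1.87 ± 0.09), which takes nitrate back from the xylem, the glucosinolate carrier GTR1 (0.56 ± 0.09) and NPF4.3 (0.67 ± 0.07). The median difference over the 38 loci was -0.086, against 0.020 over all loci, and differences ran between -2.24 and 1.87. The median was -0.28 without GFP replicate 2 and -0.25 without OBP4 replicate 1.

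**Figure D1:**
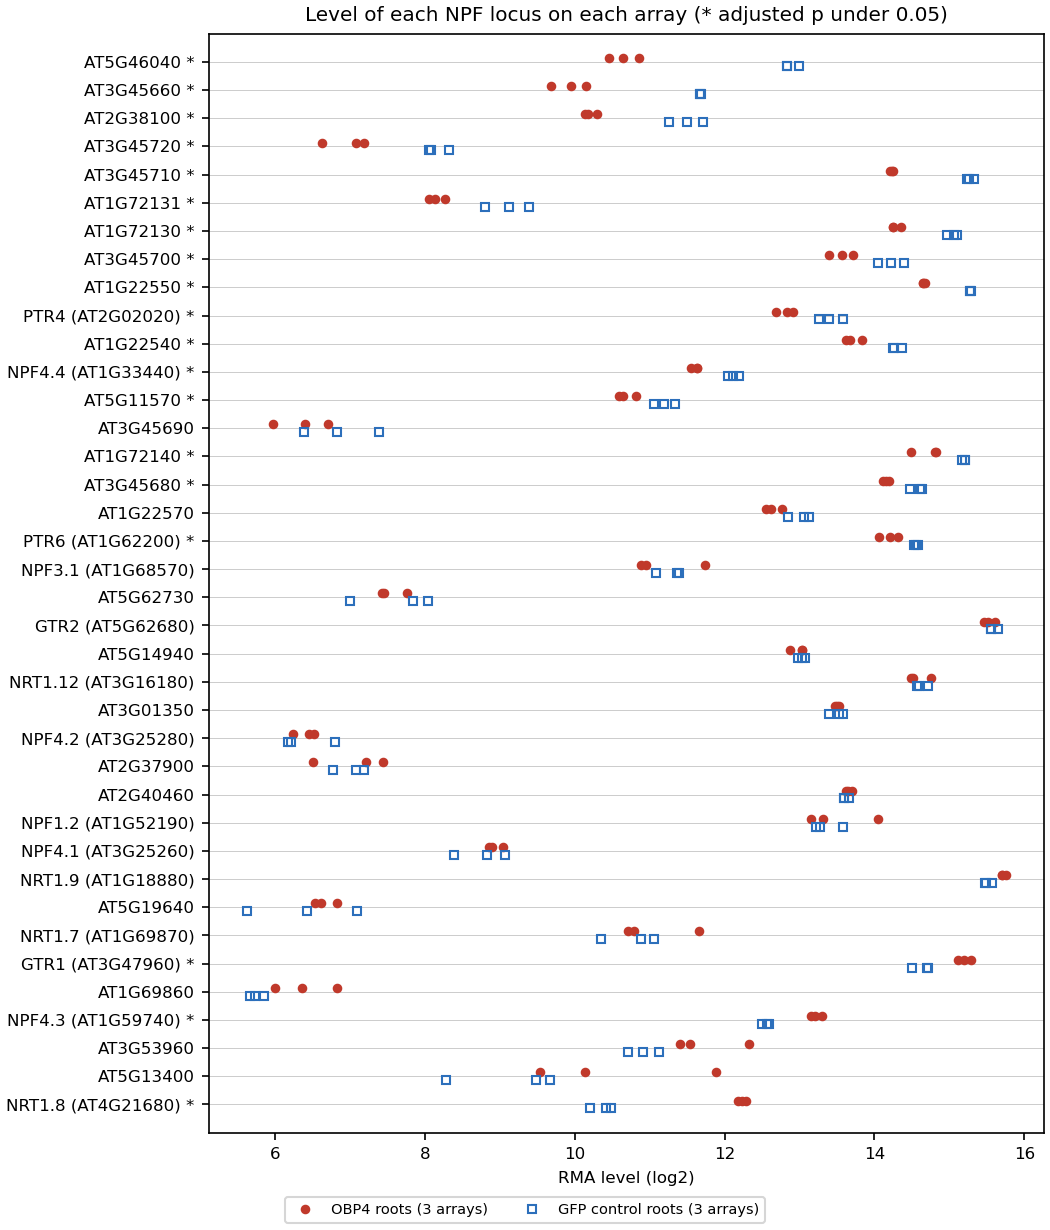
Log2 level of each of the 38 NPF loci on each array (filled circles, 3 OBP4 roots; open squares, 3 GFP control roots), ordered by difference, with an asterisk where the adjusted p was under 0.05. AT5G46040 at the top lies at 10.46 to 10.86 in OBP4 roots and 12.83 to 13.00 in GFP roots, and NRT1.8 at the bottom lies at 12.18 to 12.29 in OBP4 roots and 10.21 to 10.48 in GFP roots.

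The arrays of the lines did not overlap for 23 of the 38 loci, 17 with OBP4 arrays below and 6 with OBP4 arrays above, where 36.9% of all loci did not overlap (18.9% below and 18% above). A drop of at least 1 that also passed the test was seen at 5 loci (3.06% of all loci) and a rise of at least 1 at 1 locus (1.72% of all loci). Without 1 array at a time, 10 to 12 loci were lower and 2 to 3 were higher. The shares of all loci in these smaller comparisons are not given here. The lower count was smallest, at 10, without GFP replicate 1 and without OBP4 replicate 2. Of the 16 lower loci, 9 passed in all 6 of these smaller comparisons and 7 passed in 1 or 2 of them. Of the 38 loci, 6 passed in the second deposited table, where 5.55% of all loci did, and of the 19 loci called on the arrays 3 passed in the same direction (AT5G46040, NPF4.4 and NPF4.3) and 4 had the opposite sign.

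Among the named nitrate carriers chosen by the annotation words, NRT1.8 alone passed the test. NAXT1, a nitrate carrier of the same family whose annotation lacks those words, fell and is given further on. NRT1.8 (NPF7.2, AT4G21680, chromosome 4, 11517353 to 11519765, reverse strand) removes nitrate from xylem sap into the cells around the vessels of the root. It stood at 12.29, 12.18 and 12.23 in OBP4 roots and at 10.48, 10.21 and 10.42 in GFP roots. Every OBP4 array lay well above every GFP array, and the level was 3.65-fold higher in OBP4 roots (difference 1.87 ± 0.09, adjusted p = 0.000533). The rise passed without each of the arrays in turn, but in the second deposited table the difference was 0.17 (adjusted p = 0.84).

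NRT1.9 (NPF2.9, AT1G18880), which loads nitrate into the phloem of the root, stood at 15.71, 15.75 and 15.70 in OBP4 roots and at 15.57, 15.49 and 15.47 in GFP roots. The OBP4 arrays were all above the GFP arrays by a small margin, 0.21 ± 0.06, which did not pass (adjusted p = 0.0897). These levels lie close to the highest value in the array tables, 15.93. NRT1.9 did pass with trend and robust settings of the limma fit (adjusted p = 0.00412).

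NRT1.7 (NPF2.13, AT1G69870), which loads nitrate into the phloem of old leaves, was at 11.66, 10.79 and 10.71 in OBP4 roots and at 11.06, 10.35 and 10.89 in GFP roots, and the lines overlapped (0.29 ± 0.32, adjusted p = 0.609). NPF1.2 (NRT1.11, AT1G52190) was at 14.05, 13.32 and 13.15 in OBP4 roots and at 13.58, 13.22 and 13.28 in GFP roots (0.15 ± 0.26, adjusted p = 0.75). NRT1.12 (NPF1.1, AT3G16180) was at 14.51, 14.76 and 14.48 in OBP4 roots and at 14.59, 14.57 and 14.71 in GFP roots (-0.04 ± 0.10, adjusted p = 0.837). The pair NRT1.11 and NRT1.12 is known for passing nitrate from xylem to phloem in the leaf stalk, and both overlapped between the lines.

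The glucosinolate carriers GTR1 and GTR2 import the defence compounds of the cabbage family into cells and take part in their transport between root and shoot. GTR1 (NPF2.10, AT3G47960, chromosome 3, 17697942 to 17700769, reverse strand) was at 15.19, 15.29 and 15.12 in OBP4 roots and at 14.71, 14.50 and 14.70 in GFP roots. All OBP4 arrays were higher, and the gene was 1.48-fold higher in OBP4 roots (0.56 ± 0.09, adjusted p = 0.0145). The rise no longer passed without GFP replicate 3 (adjusted p = 0.0503) or without OBP4 replicate 2 (adjusted p = 0.0539), and it was 0.20 in the second table (adjusted p = 0.557). GTR2 (NPF2.11, AT5G62680) was at 15.46, 15.61 and 15.51 in OBP4 roots and at 15.56, 15.55 and 15.65 in GFP roots. The lines overlapped there (-0.06 ± 0.07, adjusted p = 0.641), close to the top of the scale. Whether the 2 genes differ from each other in response was not tested.

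Of the NPF4 members and NPF3.1, 1 rose, 1 fell and 3 did not pass, where 5.23% of all loci rose and 8.48% fell. NPF4.3 (AT1G59740, chromosome 1, 21968071 to 21972411, forward strand) was at 13.21, 13.30 and 13.15 in OBP4 roots and at 12.59, 12.57 and 12.50 in GFP roots. It was higher on every OBP4 array (0.67 ± 0.07, adjusted p = 0.00376). NPF4.4 (AT1G33440, chromosome 1, 12127389 to 12130407, reverse strand) was at 11.63, 11.56 and 11.63 in OBP4 roots and at 12.20, 12.05 and 12.12 in GFP roots. It was lower on every OBP4 array (-0.51 ± 0.07, adjusted p = 0.00852), so close relatives by name moved in opposite directions. Both passed without each array in turn.

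NPF3.1 (AT1G68570), a gibberellin carrier of the root endodermis, was at 11.73, 10.96 and 10.88 in OBP4 roots and at 11.39, 11.08 and 11.36 in GFP roots. The lines overlapped (-0.09 ± 0.25, adjusted p = 0.852). NPF4.1 (0.17 ± 0.19) and its neighbour NPF4.2 (0.00 ± 0.19) overlapped too, with NPF4.2 between 6.18 and 6.80 over the 6 arrays, in the dim range.

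Of the 38 loci, 2 carry a PTR (peptide transporter) symbol in the reference, PTR4 and PTR6. Both fell, where 8.48% of all loci fell. PTR1, PTR2, PTR3 and PTR5, whose annotation lacks the phrase, are given further on. PTR4 (AT2G02020, chromosome 2, 479101 to 481185) was at 12.92, 12.69 and 12.84 in OBP4 roots and at 13.58, 13.26 and 13.40 in GFP roots (-0.60 ± 0.11, adjusted p = 0.0251). PTR6 (AT1G62200, chromosome 1, 22982036 to 22984359) was at 14.31, 14.06 and 14.21 in OBP4 roots and at 14.59, 14.55 and 14.53 in GFP roots (-0.36 ± 0.08, adjusted p = 0.0459). Neither gene overlapped between the lines, but both differences were modest. PTR4 passed without GFP replicate 2 and without OBP4 replicate 1 and gave 0.0667 to 0.0844 without each of the others. PTR6 passed without OBP4 replicate 1 and gave 0.103 to 0.133 without each of the others, and it did not pass after median centring (0.0539), cyclic loess (0.0586) or quantile normalization (0.0553).

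The 24 loci without a reference name held 13 that fell (54.2%), 0 that rose and 11 that did not pass. Their median difference was -0.49. The 14 named loci held 3 that fell (21.4%), 3 that rose (21.4%) and 8 that did not pass, with a median of 0.08. Among all loci, 8.48% fell and 5.23% rose. The unnamed loci that fell lay largely beside each other in the genome. Of 18 NPF loci with another gene of the family within 10 kb, 12 fell (66.7%) and 0 rose (median -0.59). Of the other 20 loci, 4 fell (20%) and 3 rose (15%), with a median of 0.02. The 10 kb limit was set with earlier results known, and these counts carry no test.

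The longest run of neighbours stretched over 27.7 kb of chromosome 3 (16759253 to 16786945), where 5 of its 6 NPF loci fell, against 8.48% of all loci. AT3G45660 (16762205 to 16764241, forward strand) was at 9.68, 9.96 and 10.15 in OBP4 roots and at 11.67, 11.68 and 11.67 in GFP roots. The GFP arrays were nearly identical and all OBP4 arrays lay far below them, so that the level was 3.36-fold lower in OBP4 roots (-1.75 ± 0.13, adjusted p = 0.00126). AT3G45720 (16785046 to 16786945), at the far end, was at 7.19, 7.08 and 6.63 in OBP4 roots and at 8.32, 8.05 and 8.08 in GFP roots (-1.18 ± 0.17, adjusted p = 0.0109). AT3G45710 (16782643 to 16784735) was at 14.23, 14.21 and 14.25 in OBP4 roots and at 15.23, 15.27 and 15.33 in GFP roots (-1.04 ± 0.06, adjusted p = 0.00069). These 3 loci passed without each array in turn. In the second table AT3G45660 had the opposite sign (0.48, adjusted p = 0.341), AT3G45710 differed by -0.01 and AT3G45720 by -0.62, and 0 of the 3 passed.

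Between them, AT3G45700 (16778713 to 16781198) was at 13.40, 13.71 and 13.57 in OBP4 roots and at 14.39, 14.22 and 14.05 in GFP roots (-0.66 ± 0.13, adjusted p = 0.0268). AT3G45680 (16770933 to 16773030) was at 14.15, 14.11 and 14.20 in OBP4 roots and at 14.64, 14.61 and 14.47 in GFP roots (-0.42 ± 0.07, adjusted p = 0.02). Both fell with no overlap between the lines. AT3G45700 passed without GFP replicate 3 and without OBP4 replicate 2, and AT3G45680 without GFP replicate 3. Without each of the other arrays AT3G45700 gave 0.0677 to 0.0826 and AT3G45680 gave 0.0556 to 0.0741. The second table gave -0.73 for AT3G45700 and 0.087 for AT3G45680, neither of which passed. The 1 locus of the run that did not pass, AT3G45690, was dim, at 5.97, 6.71 and 6.405 in OBP4 roots and at 7.39, 6.83 and 6.38 in GFP roots, and overlapped (-0.50 ± 0.31, adjusted p = 0.357).

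A second run covered 12.4 kb of chromosome 1 (27132097 to 27144490), and all 3 of its NPF loci fell, against 8.48% of all loci. AT1G72130 (27137181 to 27139384) was at 14.25, 14.25 and 14.36 in OBP4 roots and at 15.11, 15.06 and 14.97 in GFP roots (-0.76 ± 0.07, adjusted p = 0.0025). AT1G72140 (27141814 to 27144490) was at 14.81, 14.83 and 14.49 in OBP4 roots and at 15.21, 15.21 and 15.17 in GFP roots (-0.49 ± 0.11, adjusted p = 0.042). The pseudogene AT1G72131 (27139395 to 27140536), which begins just past AT1G72130, was at 8.14, 8.06 and 8.27 in OBP4 roots and at 9.39, 8.80 and 9.13 in GFP roots (-0.95 ± 0.17, adjusted p = 0.0195). All 3 were below GFP on every OBP4 array. AT1G72130 passed without each array in turn, but 0 of the 3 passed in the second table, where AT1G72130 differed by -0.03, AT1G72140 by 0.03 and AT1G72131 by -0.41. AT1G72131 passed without GFP replicate 1 and without GFP replicate 2 and gave 0.0537 to 0.0736 without the others, and AT1G72140 passed without OBP4 replicate 3 and gave 0.0691 to 0.122 without the others.

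Another run on chromosome 1 (7964042 to 7978573, 14.5 kb) held AT1G22540, AT1G22550 and AT1G22570. AT1G22550 (7966533 to 7968641, reverse strand) was at 14.68, 14.64 and 14.64 in OBP4 roots and at 15.28, 15.28 and 15.30 in GFP roots (-0.63 ± 0.06, adjusted p = 0.00224). AT1G22540 (7964042 to 7966436, forward strand) was at 13.84, 13.67 and 13.62 in OBP4 roots and at 14.37, 14.26 and 14.24 in GFP roots (-0.58 ± 0.08, adjusted p = 0.0111). These 2 fell, whichever array was left out, and they lie on opposite strands. Neither passed in the second table (0.06 for AT1G22550 and -0.24 for AT1G22540). AT1G22570 was at 12.55, 12.77 and 12.62 in OBP4 roots and at 13.12, 12.85 and 13.06 in GFP roots, with every OBP4 array below GFP (-0.37 ± 0.11), and did not pass (adjusted p = 0.0853). It did pass with trend and robust settings (adjusted p = 0.0377).

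**Figure D2:**
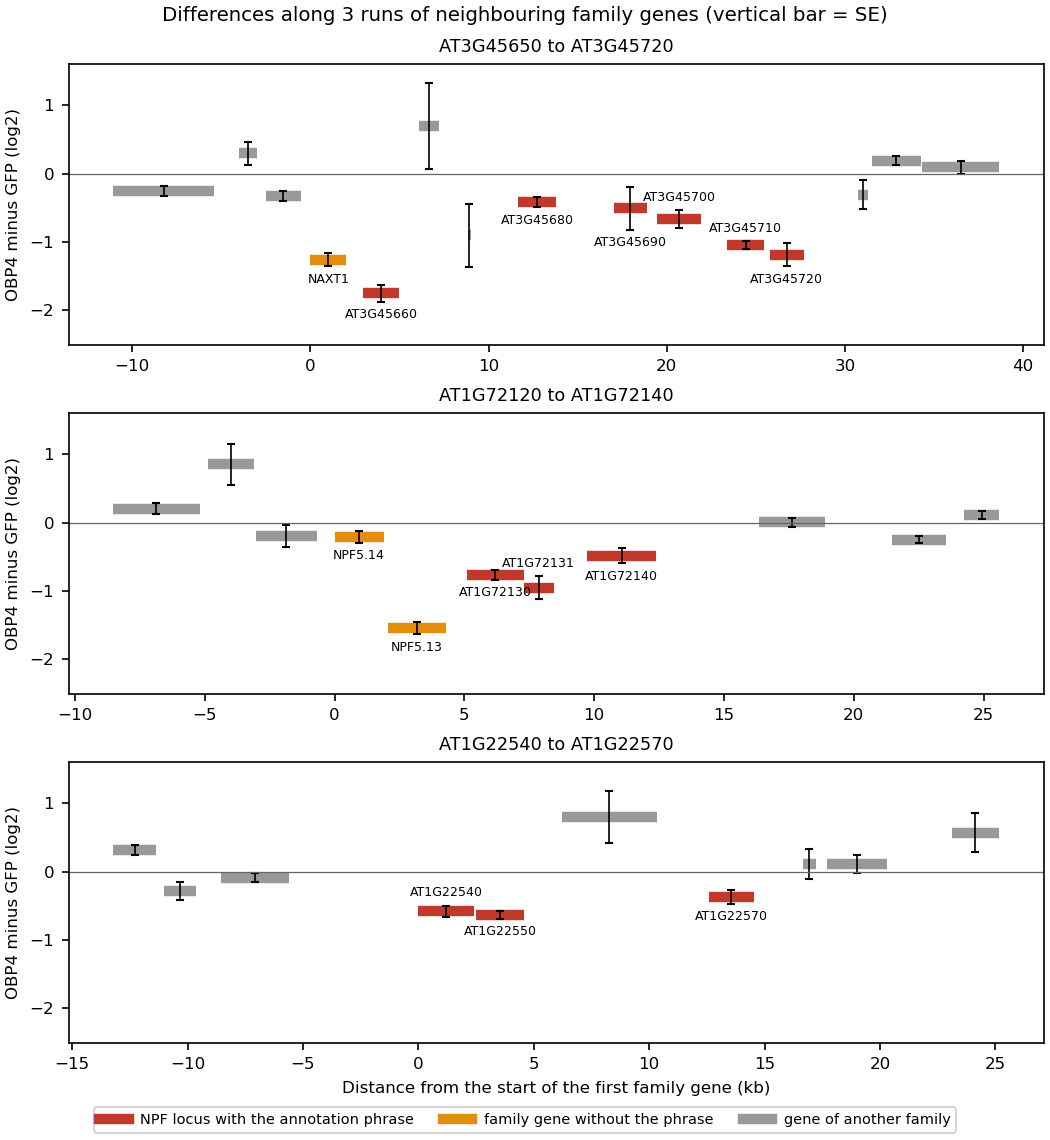
Difference of OBP4 minus GFP (log2, vertical bar SE) for every gene along 3 runs of neighbouring family genes, by distance in kb from the start of the first family gene. The horizontal bars are genes, coloured as NPF loci, family genes whose annotation lacks the phrase, and genes of other families up to 3 beyond each end, and in the top panel all 7 family genes lie below 0, between -0.42 and -1.75.

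Outside these runs, AT5G46040 (chromosome 5, 18671397 to 18673551, reverse strand) fell furthest of the 38 loci. It was at 10.86, 10.65 and 10.46 in OBP4 roots and at 12.83, 12.84 and 13.00 in GFP roots. Every OBP4 array lay far below every GFP array, and the level was 4.71-fold lower in OBP4 roots (-2.24 ± 0.12, adjusted p = 0.000599). AT2G38100 (chromosome 2, 15948484 to 15950228, reverse strand), which has no family gene within 10 kb, was at 10.18, 10.29 and 10.14 in OBP4 roots and at 11.71, 11.25 and 11.50 in GFP roots. It was 2.43-fold lower in OBP4 roots (-1.28 ± 0.13, adjusted p = 0.00343). AT5G11570 (chromosome 5, 3715943 to 3718276, reverse strand) was at 10.60, 10.64 and 10.82 in OBP4 roots and at 11.34, 11.06 and 11.19 in GFP roots (-0.51 ± 0.10, adjusted p = 0.0331). It passed without GFP replicate 2 and without OBP4 replicate 3 and gave 0.0893 to 0.106 without the others, while AT5G46040 and AT2G38100 passed every time. In the second table AT5G46040 was lower by less (-0.66, adjusted p = 0.022), and AT2G38100 (-0.71, adjusted p = 0.0989) did not pass.

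Genes of other families near the runs and pairs were counted beside them. Of 50 such genes, which lie inside a run or are among the 3 nearest on either side, 5 rose (10%), 5 fell (10%) and 40 did not pass, against 5.23% and 8.48% of all loci. Beside the chromosome 3 run, 1 of 8 fell and 0 rose. The probe sequences were not analysed here, and whether probes of close copies share signal was not tested.

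The reference assigns 14 more measured genes to the same family whose array annotation lacks the phrase, among them the best known nitrate carriers. Of these 14 genes, 3 (21.4%) fell and 0 rose, against 8.48% and 5.23% of all loci. PTR3 (NPF5.2, AT5G46050, chromosome 5, 18675035 to 18679146), a di- and tripeptide transporter and the neighbour of AT5G46040, was at 9.70, 8.88 and 9.15 in OBP4 roots and at 11.25, 11.69 and 11.64 in GFP roots (-2.29 ± 0.25, adjusted p = 0.00405). NPF5.13 (AT1G72125), inside the second run, was at 11.98, 12.06 and 11.80 in OBP4 roots and at 13.55, 13.43 and 13.48 in GFP roots (-1.54 ± 0.09, adjusted p = 0.000724). NAXT1 (AT3G45650), which releases nitrate from root cells and opens the chromosome 3 run, was at 13.38, 13.49 and 13.64 in OBP4 roots and at 14.67, 14.79 and 14.83 in GFP roots (-1.26 ± 0.09, adjusted p = 0.00134). Each of the 3 lies in a run of neighbours that holds NPF loci that fell, and each passed without each array in turn. PTR3 passed in the opposite direction in the second table (0.92, adjusted p = 0.0391), and NPF5.13 (-0.22) and NAXT1 (-0.18) did not pass.

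With these genes counted, 6 of 7 family genes of the chromosome 3 run and 4 of 5 of the second run fell, and both genes of the pair on chromosome 5 fell. The share of all loci that fell was 8.48%. NPF5.14 (AT1G72120), the first gene of the second run, differed by -0.21 ± 0.09 and did not pass (adjusted p = 0.188). In the pair on chromosome 2, PTR4 fell while PTR2 was at 15.41, 15.40 and 15.27 in OBP4 roots and at 15.47, 15.37 and 15.50 in GFP roots (-0.09 ± 0.08, adjusted p = 0.509). In the run AT1G69850 to AT1G69870, 0 of 3 passed and all 3 differences were above 0. NPF4.1 and NPF4.2 form the remaining pair, of which 0 passed.

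Within the family, the nitrate carriers with the longest record did not pass. NRT1.1 (NPF6.3, AT1G12110), the dual-affinity carrier and nitrate sensor, was at 15.66, 15.59 and 15.69 in OBP4 roots and at 15.66, 15.74 and 15.78 in GFP roots (-0.08 ± 0.07, adjusted p = 0.476). NRT1.5 (NPF7.3, AT1G32450), which loads nitrate into the xylem, was at 15.85, 15.74 and 15.77 in OBP4 roots and at 15.87, 15.88 and 15.89 in GFP roots (-0.09 ± 0.06, adjusted p = 0.38). NRT1:2 (NPF4.6, AT1G69850), which carries nitrate and abscisic acid, was at 15.70, 15.74 and 15.64 in OBP4 roots and at 15.53, 15.49 and 15.47 in GFP roots (0.19 ± 0.06, adjusted p = 0.11). The NRT1:2 arrays did not overlap, and it passed with trend and robust settings (adjusted p = 0.00693). All 3 lie near the top of the scale.

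Of the remaining named genes of the family, PTR1 (0.04 ± 0.06), a dipeptide carrier, NPF6.2 (0.05 ± 0.18) and NPF6.4 (-0.20 ± 0.19) did not pass. PTR5, a dipeptide carrier known from pollen, was dimmer and uneven, at 9.66, 8.94 and 8.92 in OBP4 roots and at 8.92, 8.33 and 8.78 in GFP roots (0.50 ± 0.26, adjusted p = 0.289).

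**Figure D3:**
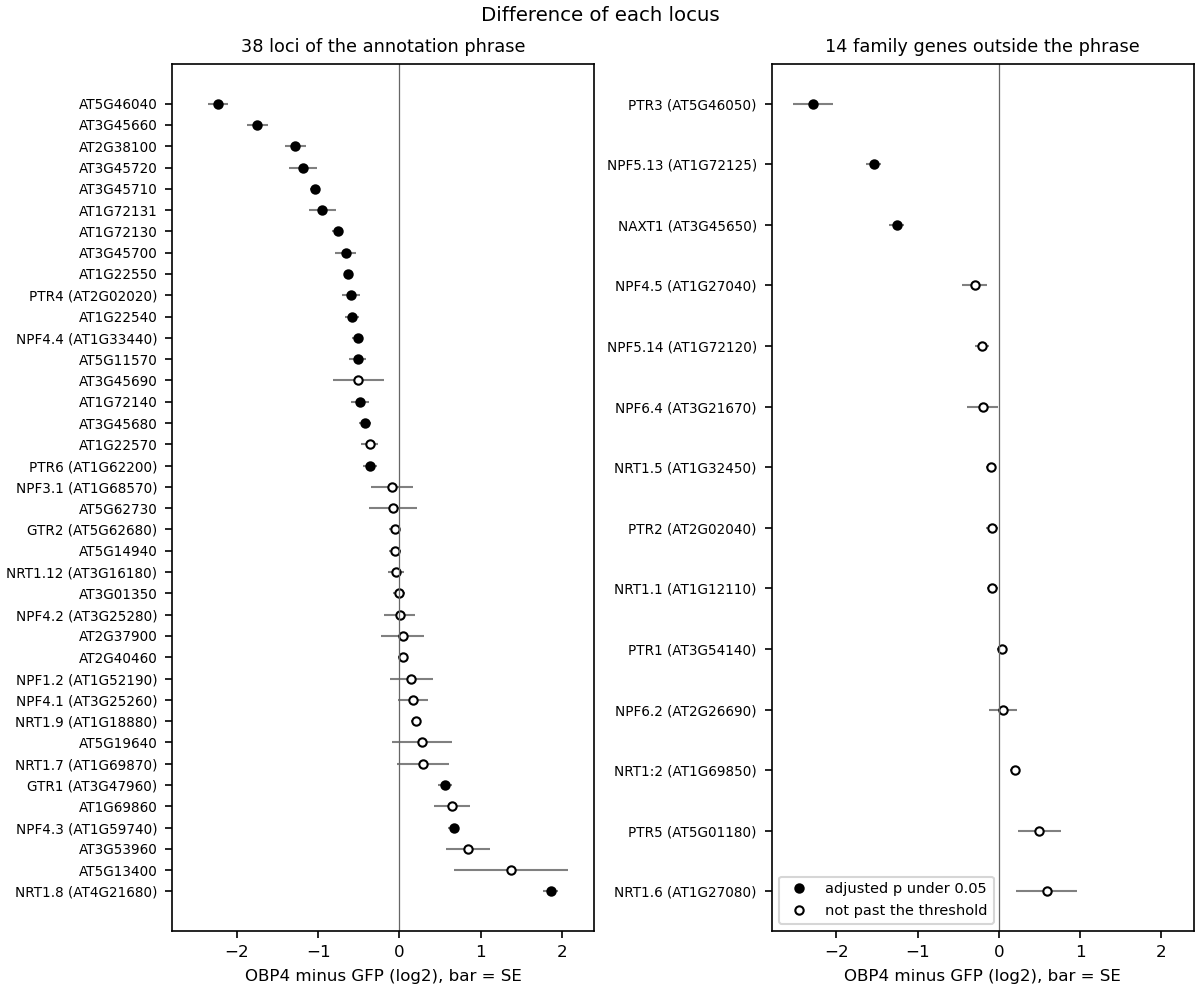
OBP4 minus GFP difference (log2) with SE for the 38 NPF loci at left and 14 further family genes at right, with filled points where the adjusted p was under 0.05. The left panel runs between -2.24 for AT5G46040 and 1.87 for NRT1.8, and on the right PTR3, NPF5.13 and NAXT1 are the filled points.

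The 19 loci that did not pass were spread over dim, middle and bright levels. Of 7 loci with a mean level under 8, 1 passed (AT3G45720), and of 2 loci at 15.5 or above, 0 passed. The 29 loci in between held 15 that fell, 3 that rose and 11 that did not pass. Over all levels, 8.48% of all loci fell and 5.23% rose. The shares of all loci at dim, middle and bright levels are not given here, so nothing about the family is read from these counts by level. The dim loci AT5G62730 (-0.08 ± 0.29), AT2G37900 (0.04 ± 0.27) and AT5G19640 (0.28 ± 0.37) had wide errors. AT1G69860, also dim, was at 6.37, 6.83 and 5.995 in OBP4 roots and at 5.67, 5.73 and 5.86 in GFP roots, with no overlap but no pass (adjusted p = 0.125). AT5G14940 (-0.05 ± 0.07), AT3G01350 (0.00 ± 0.07) and AT2G40460 (0.05 ± 0.06) had small errors and differences near 0.

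Some of the loci that did not pass varied among the OBP4 arrays. AT5G13400 was at 11.88, 9.54 and 10.14 in OBP4 roots and at 9.48, 8.28 and 9.67 in GFP roots. OBP4 replicate 1 stood far above all others, and the difference of 1.38 ± 0.71 did not pass (adjusted p = 0.273). Without OBP4 replicate 1 it was 0.70 (adjusted p = 0.436). AT3G53960 was at 12.33, 11.41 and 11.54 in OBP4 roots and at 10.72, 11.12 and 10.91 in GFP roots, with no overlap, and did not pass either (0.84 ± 0.27, adjusted p = 0.109). With trend and robust settings of the limma fit AT3G53960 passed (adjusted p = 0.0375).

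Photosynthesis transcripts also varied among the arrays. The mean of 12 shoot marker genes was 14.58, 11.58 and 13.27 on the OBP4 arrays and 12.26, 11.93 and 13.06 on the GFP arrays. It was thus highest on OBP4 replicate 1 and lowest on OBP4 replicate 2. Of the 12 markers 0 passed, and their median difference was 0.82. In 6 NPF loci, AT5G13400, AT2G37900, AT3G53960, NRT1.7, NPF3.1 and NPF1.2, OBP4 replicate 1 exceeded replicate 2 by 0.73 to 2.34, and 0 of these 6 passed. They were picked for that gap, which widens their SE, so their not passing follows in part from the choice. Over all 38 loci, replicate 1 was above replicate 2 in 20 and below it in 18, with AT3G45690 (-0.74) and AT1G69860 (-0.47) furthest below. Among the GFP arrays, where the marker mean was higher on replicate 3 than on replicate 2, AT2G37900 (-0.10) and AT3G53960 (-0.22) were lower on replicate 3, and the other 4 of the 6 were higher. With the shoot marker mean as a covariate, a choice made after seeing the data, 13 loci were lower and 3 were higher. The shares of all loci with this covariate are not given here. The loci that no longer passed kept their differences, AT3G45680 at -0.42 (adjusted p = 0.0534), AT1G72140 at -0.47 (adjusted p = 0.0907) and AT5G11570 at -0.51 (adjusted p = 0.0738). The difference of AT5G13400 became 0.80 (adjusted p = 0.247).

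**Figure D4:**
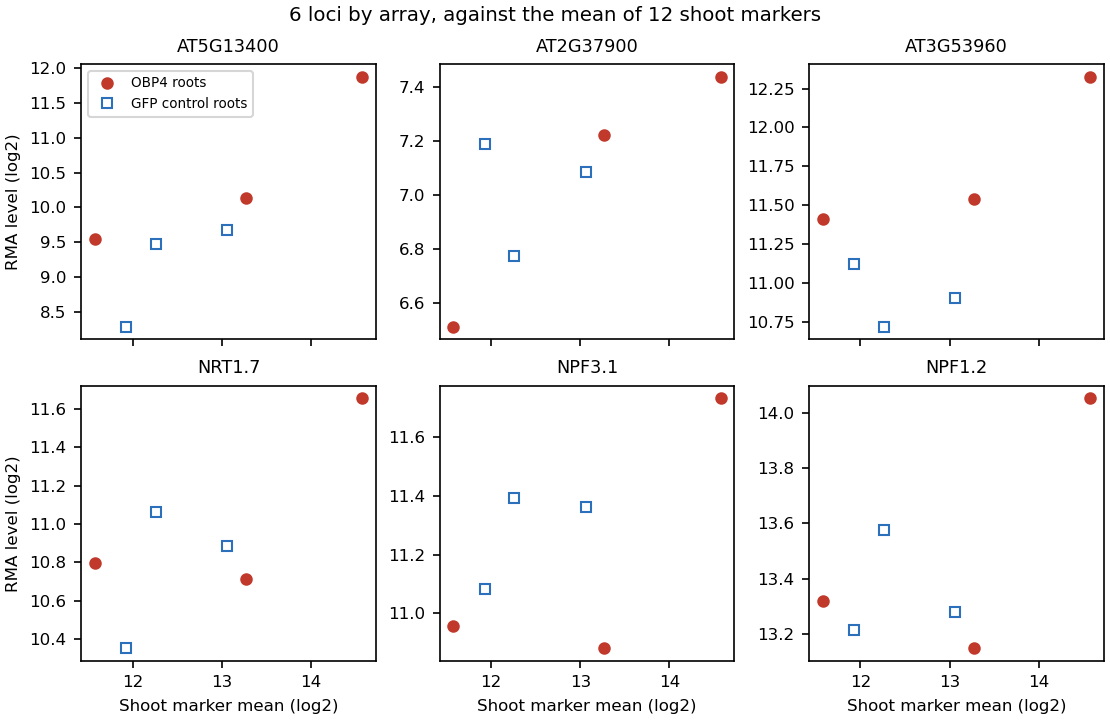
Log2 level of 6 NPF loci on each array against the mean log2 level of 12 shoot marker genes on the same array (filled circles, OBP4 roots; open squares, GFP control roots). The 6 loci were picked because OBP4 replicate 1, with a marker mean of 14.58, exceeded OBP4 replicate 2, so its high place in each panel follows from the choice.

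Outside the family, 43 of 44 listed genes of nitrate transport, reduction and signalling were measured, of which 9 (20.9%) fell, 1 (2.33%) rose and 33 did not pass, against 8.48% and 5.23% of all loci. The median of the list was -0.12. The high-affinity nitrate carrier NRT2.1 was at 10.13, 10.70 and 10.63 in OBP4 roots and at 14.10, 13.99 and 14.31 in GFP roots. It was far lower on every OBP4 array, 12.5-fold lower in OBP4 roots (-3.65 ± 0.18, adjusted p = 0.000533). In the second table NRT2.1 (recorded as NRT2:1 in the reference) passed in the opposite direction (0.93, adjusted p = 0.0408), and so did NRT2.2 (0.81, adjusted p = 0.0468). NRT2.2 (-1.94 ± 0.24, adjusted p = 0.00661), its close relative, NRT2.4 (-1.54 ± 0.29, adjusted p = 0.0259) and the anion channel homologue SLAH1 (-1.30 ± 0.13, adjusted p = 0.0031) also fell. The other 5 that fell were the vacuolar anion carrier CLC-B (-1.07), AT3G25790 (-0.76), CBL9 (-0.52), the nitrate-responsive regulator NLP7 (-0.52) and SLAH3 (-0.36), named after their values were seen because they complete the count. TCP20, a regulator of root growth towards nitrate, was the gene that rose (0.42 ± 0.09, adjusted p = 0.0337). SLAH1 fell again in the second table (-1.47, adjusted p = 0.0264), TCP20 had the opposite sign (-0.11), and NRT2.4 and the other 5 did not pass.

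The genes of nitrate reduction did not pass. The nitrate reductases NIA1 (0.08 ± 0.09, adjusted p = 0.627) and NIA2 (0.04 ± 0.06, adjusted p = 0.716) and the nitrite reductase NIR1 (-0.10 ± 0.06, adjusted p = 0.341) differed by 0.10 or less, all near the top of the scale. NRT3.1 (WR3 in the reference), the partner protein of NRT2.1, differed by -0.13 ± 0.12 (adjusted p = 0.556), and passed as -0.26 when only its brightest row was read (adjusted p = 0.0391). The lower count was 5 without OBP4 replicate 2. TCP20 passed without OBP4 replicate 2 (0.0422) and gave 0.0632 to 0.113 without each of the others. NRT2.4 passed without GFP replicate 1 (0.0195) and gave 0.0528 to 0.091 without each of the others, and SLAH3 passed without OBP4 replicate 1 (0.0411) and gave 0.0783 to 0.102 otherwise. NLP7 gave 0.0548 to 0.0552 without GFP replicate 1, OBP4 replicate 2 or OBP4 replicate 3, and AT3G25790 gave 0.0519 without GFP replicate 3 and 0.0528 without OBP4 replicate 2.

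The OPT genes encode a separate family of oligopeptide carriers. Of 9 measured, 2 rose (22.2%), 1 fell (11.1%) and 6 did not pass, against 5.23% and 8.48% of all loci. OPT2 was at 9.07, 8.82 and 8.73 in OBP4 roots and at 7.58, 8.02 and 7.65 in GFP roots (1.12 ± 0.15, adjusted p = 0.0088). OPT4 was at 15.17, 15.03 and 15.26 in OBP4 roots and at 14.70, 14.76 and 14.69 in GFP roots (0.44 ± 0.08, adjusted p = 0.024). OPT7 was at 13.31, 13.08 and 13.15 in OBP4 roots and at 14.02, 13.97 and 14.01 in GFP roots (-0.82 ± 0.08, adjusted p = 0.00304). None of the 3 overlapped between the lines. OPT4 passed without OBP4 replicate 2 (0.0312) and gave 0.0621 to 0.0903 without each of the others. In the second table OPT2 rose again (1.69, adjusted p = 0.00784), and OPT4 (0.057) and OPT7 (-0.17) did not pass. OPT3, which did not pass on the arrays (0.12 ± 0.08, adjusted p = 0.367), was lower in the second table (-1.12, adjusted p = 0.00232).

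**Figure D5:**
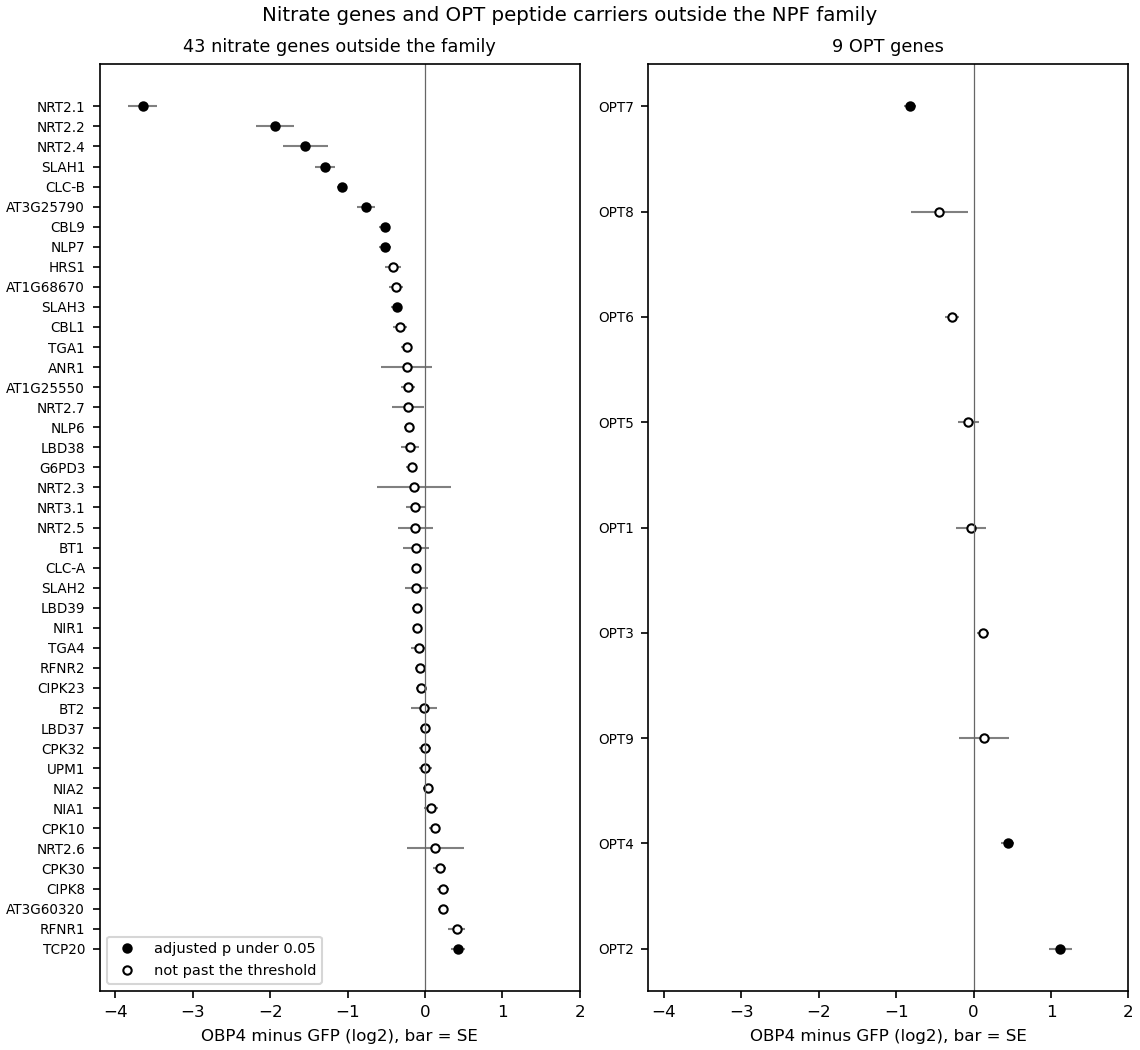
OBP4 minus GFP difference (log2) with SE for 43 nitrate genes outside the NPF family at left and 9 OPT genes at right, with filled points where the adjusted p was under 0.05. NRT2.1 is the lowest point at -3.65, and the reductases NIA1, NIA2 and NIR1 lie between -0.10 and 0.08.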

How the data were processed

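The members, gene lists and neighbour limit were chosen with earlier results of these data known. The authors deposited 1 table per array of log2 values for 37118 gene models, and the deposited tables' own titles name RMA, which corrects background, normalizes arrays and summarises probes. The software was not given in the sources used here, nor were its settings. Values approach the ceiling of a 16-bit scanner. A second deposited table of log2 values, with its normalization unstated, served as an alternative only.

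Gene models of a locus were averaged, giving 32627 loci, 3602 of them with several models. The NCBI RefSeq table for TAIR10.1 held 31993 loci and gave the symbols and family names. Coordinates follow the array annotation, and no genome build was given in the sources used here.

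The lines were compared by limma 3.58.1 (lmFit, then eBayes) under R 4.3.3. The test was two-sided, p-values were adjusted by Benjamini-Hochberg over the 32627 loci, and 0.05 was the threshold, without a filter or further normalization. The labels state no test. Arrays have no depth, and 3 per line limit the precision. Named genes are all NPF loci past the threshold, family genes with established cargo, of the nitrate list up to 4 largest changes each way past the threshold with NRT2.1, NRT3.1, NIA1, NIA2 and NIR1, and OPT genes past the threshold. Other genes were named after their values were seen. Members were to be grouped by subfamily. The reference gives no NPF number for the 24 loci without a name or for NRT1.12, so names and neighbourhood were used. The number NPF1.1 given for NRT1.12 is not from the reference. Same-numbered arrays deviated from their line means with correlations of -0.20, 0.09 and -0.17, so numbers were not taken as pairs.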

Additional observations from a re-analysis of the deposited data

Results flagged for a closer look

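In the second deposited table of log2 values, used above as an alternative only, 6 of the 38 NPF loci passed the same limma test. Over all loci, 5.55% passed there. NPF4.1 (1.12), NPF4.3 (0.78) and AT2G40460 (0.76) were higher in OBP4 roots, and NPF1.2 (-0.86), AT5G46040 (-0.66) and NPF4.4 (-0.54) were lower. Of these, AT5G46040, NPF4.4 and NPF4.3 had passed in the same direction on the arrays. Of the 19 loci called on the arrays, 4 had the opposite sign in the second table. In that table OBP4 itself did not separate the lines (0.01 ± 0.09, adjusted p = 0.98), so a pass or failure there does not decide a call. How that table was normalized was not given in the sources used here, and the cause of its difference from the arrays was not tested.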

How the results depend on the processing

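Array weights and the brightest row per locus kept all 19 calls among the 38 NPF loci, and cyclic loess, median centring and quantile normalization kept 18 each. With the stricter threshold of 0.01, 7 loci were lower. Trend and robust settings gave 5 higher. With the replicate block, 7 were lower and 2 higher, and 9 kept their call. The main fit called 8.48% of all loci lower and 5.23% higher. For the other settings except the second table, the shares of all loci are not given here. Changes in the counts under those settings therefore have no background beside them. The second table gave 3 lower. Leaving out 1 array gave 10 to 12 lower and 2 to 3 higher. The median difference of -0.086 was -0.062 after median centring, -0.11 after quantile normalization, -0.028 in the second table, -0.36 and -0.37 without the dimmest 25% and 50% of loci, and -0.28 to -0.066 without 1 array (-0.28 without GFP replicate 2, -0.25 without OBP4 replicate 1). No direction of the family is read from it.

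In the nitrate list, the higher count of 1 was 2 with array weights, 4 with trend and robust settings, 0 with the replicate block, 2 in the second table, 0 with the shoot covariate, 2 and 4 without the dimmest 25% and 50%, 0 at the threshold of 0.01, and 0 to 1 without 1 array. The lower count of 9 was 4 with the replicate block, 3 in the second table, 14 without the dimmest 25%, 5 at the threshold of 0.01 and 5 to 8 without 1 array. In the second table the sign turned for AT1G22550 (0.06), AT1G72140 (0.03), AT3G45660 (0.48), AT3G45680 (0.087), NPF1.2 (-0.86), PTR3 (0.92), NRT2.1 (0.93), NRT2.2 (0.81) and TCP20 (-0.11). The causes were not tested, except that leaving out dim loci tests fewer loci.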
